A study of Rattus norvegicus with 12 samples.

Results

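Respiratory complex I was followed in the cortex of aged and young rats through its nuclear genes, taken as every probe set whose platform symbol begins with Nduf. The array held 46 such probe sets with a single symbol for 42 genes, out of 14218 genes named by a single symbol in all, and the brightest probe set on average stood for its gene. A further 2 probe sets that carried several Nduf symbols were left out. All 42 genes passed the filter on low signals, a log2 signal above 4.3 on at least 3 arrays, and each of them was above it on all 12 arrays.

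Complex I is the entry point of the mitochondrial respiratory chain. It takes electrons from NADH, passes them along a chain of iron-sulfur clusters to ubiquinone, and uses the energy to pump protons across the inner membrane. The enzyme is L-shaped: the N module binds NADH, the Q module reduces ubiquinone, and the proximal and distal parts of the membrane arm carry the proton pumps. In the cortex, neurons depend on this chain for the ATP that synaptic transmission uses. The Nduf symbols cover the subunits encoded in the nucleus and the assembly factors that build the enzyme and leave it. The 7 subunits encoded by mitochondrial DNA had no named probe set and were not analysed here.

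The aged group held 6 male Fischer 344 rats labelled 21 to 23 months old, and the young group held 6 males of that inbred strain labelled 3 to 5 months old. Every rat carried an implanted transmitter for sleep recording, had been trained in the Morris water maze, and was killed after its probe trial. The titles name parietal cortex as the tissue, and the tissue label gives frontal cortex instead. RNA of each rat went to an array of its own, an Affymetrix RAE230 2.0 chip of 31099 probe sets, so that the rat was the replicate, and the number of arrays limited the precision. The submitters deposited linear signal intensities, which had a trimmed mean of 500.1 on every array and medians between 161.6 and 194.3. Of 13253 genes tested, 7 differed between aged and young rats at a Benjamini-Hochberg adjusted p under 0.05 in limma, and leaving out 1 rat moved this count between 0 and 8. Aged rats 2 and 6 stood apart with array weights of 0.467 and 0.514, against 0.899 to 1.50 for the other 10 rats. Slc17a7, the vesicular glutamate transporter of cortical projection neurons, was present in all rats, with signals of 3893 to 4962 in aged and 4379 to 4774 in young rats.

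The promoters of these genes were read to show what they share besides the name. RefSeq promoters of the rat GRCr8 build, from 250 bases before to 50 bases after the annotated start, were found for 40 of the 42 genes, all except Ndufa8 and Ndufb9. Letters were searched on both strands for 4 factors known to act on respiratory chain genes in mammals. The NRF-1 letters GCGCANGCG were present in 10 of the 40 promoters (25%), against 11.85% of 10952 promoters of genes tested. The ETS letters CCGGAAG, which GABP binds, were present in 9 (22.5%, against 15.8%), and the ERR half-site AAGGTCA in 3 (7.5%, against 2.99%). The YY1 letters AAGATGGCG were present in 8 (20%, against 3.36%). No match of one factor overlapped a match of another, although the NRF-1 letters are nearly their own reverse complement, so that a single site can match on both strands. At least 1 of the 4 was present in 23 promoters, and none in 17. Ndufa6 held the NRF-1, ETS and YY1 letters, and Ndufs6 held the NRF-1, YY1 and ERR letters. A match describes the letters only, and binding was not measured.

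The YY1 matches are shown because they were alike in place and strand: all 8 lay on the gene's own strand after the start, between bases 3 and 35. Among genes tested, 368 promoters held the YY1 letters. In 206 of these (56.0%) a match lay on the gene's own strand anywhere after the start. The letters hold an ATG, and whether it is the start codon was not examined. Each line is a stretch of 30 bases of the gene's strand with the YY1 letters in capitals.
Ndufs7 (chr7:10110475-10110504, minus strand): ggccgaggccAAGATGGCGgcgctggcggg
Ndufs4 (chr2:47794891-47794920, minus strand): tgcccacaggAAGATGGCGgcggtctcaat
Ndufs6 (chr1:31797413-31797442, plus strand): ggtcgtcggcAAGATGGCGgcggcgctgac
Ndufa2 (chr18:28631839-28631868, minus strand): tttgctagcaAAGATGGCGgccgcaagccg
Ndufa6 (chr7:115750283-115750312, minus strand): cttccttagcAAGATGGCGgccgcggccag
Ndufa9 (chr4:161374141-161374170, minus strand): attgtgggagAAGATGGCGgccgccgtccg
Ndufb8 (chr1:253362896-253362925, minus strand): ggagaaggtgAAGATGGCGgcgtcccgggc
Ndufaf8 (chr10:105879900-105879929, plus strand): ggcagggcccAAGATGGCGgcgcccacaag

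NRF-1 matches in 6 of the 10 promoters are shown for comparison. Those shown lay at differing distances from the start, from 111 bases before it in Ndufa12 to the annotated start itself in Ndufb10. The NRF-1 letters, or their reverse complement, are in capitals.
Ndufa12 (chr7:30658195-30658224, plus strand): tccagctctgCGCGTGCGCagagcgacctc
Ndufv3 (chr20:9613737-9613766, plus strand): cagaatgcgcGCGCAAGCGcttggccccac
Ndufa6 (chr7:115750319-115750348, minus strand): tgtaacgctaCGCGTGCGCgcgctgagagg
Ndufs6 (chr1:31797365-31797394, plus strand): gaatgctgtgCGCCTGCGCcggcgctctgt
Ndufb10 (chr10:14255947-14255976, minus strand): ccgtctttctGCGCAGGCGtagaggtcccg
Ndufaf5 (chr3:147961587-147961616, plus strand): agtccctttgGCGCATGCGcacaatagaaa

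The main comparison asked whether complex I transcripts differed between aged and young cortex. None of the 42 genes reached an adjusted p under 0.05 in limma (0 of 42, where 0.0528% of all genes tested did). None reached an unadjusted p of 0.05 either, although 6.49% of all genes tested did so as higher in aged rats and 2.62% as lower. Of the 3280 other genes in the brightest 25%, where 34 of the 42 lay, 82 did so as higher and 133 as lower. No gene had its 6 aged rats all above or all below its 6 young rats, which held for 0.777% of all genes. The smallest adjusted p was 0.602 (Ndufaf7). By the methods' own test between the groups, too, 0 members had an unadjusted p up to 0.01, the threshold the study used. The share of all genes passing that threshold is not given here, so this count has no baseline and does not set complex I apart.

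The differences were also small. The median log2 fold change of the 42 genes, aged minus young, was -0.024, within a range from -0.14 (Ndufb6) to 0.37 (Ndufa4l2), and 11 genes were above 0 and 31 below. The median over all genes tested was 0.024, with 43.1% of them below 0. Since 34 of the 42 belonged to the brightest 25% of genes, these were the closer background: the other 3280 had a median of -0.018, with 59.0% below 0. The 95% interval of the difference stayed inside a 1.25-fold change either way for 36 genes and inside a 1.5-fold change for 41. The wider ones were those of Ndufa4, Ndufaf1, Ndufb6, Ndufb8, Ndufs7 and, beyond 1.5-fold, Ndufa4l2. The tissue was bulk cortex, in which fewer cells of a type and less RNA per cell cannot be told apart.

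**Figure D1:**
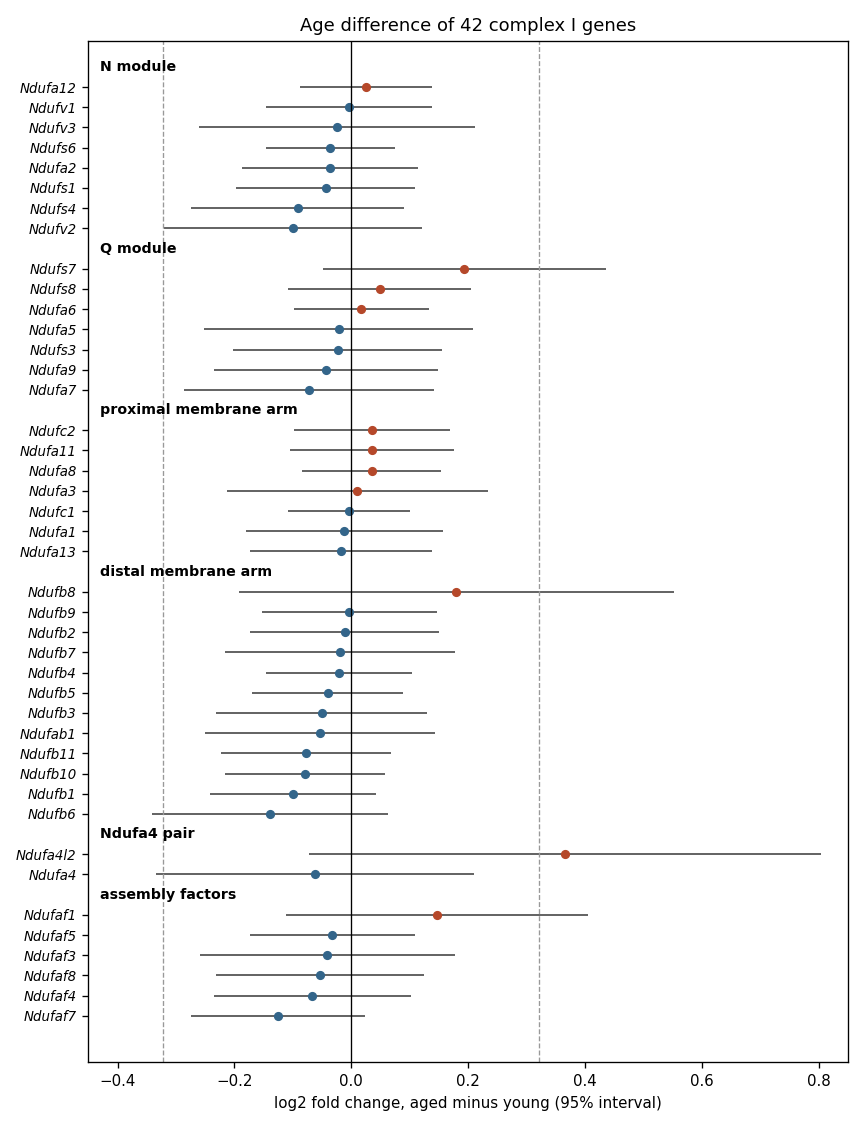
Log2 fold change (x axis, aged minus young) of 42 complex I genes, grouped by module, with points for the limma estimate (red above 0, blue below 0) and lines for its 95% interval. Dashed lines mark 1.25-fold. All 42 intervals include 0, and Ndufa4l2 has the widest one and the highest estimate (0.37).

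The side of 0 on which the members fell depended on the scaling and on single rats. With quantile normalization 19 were higher and 23 lower, and with each array centred on its median 4 were higher and 38 lower, where the median of all genes tested moved to 0.0019 and -0.047. Without aged rat 6 the median was 0.010 with 26 genes higher. Without young rat 3 or young rat 4 the number of genes higher was 18 or 17. The codes in the labels fall into a lower series (4 aged and 3 young rats) and a higher series (2 aged and 3 young rats). Within the lower series the median was 0.015 with 25 genes higher, within the higher series it was -0.11 with 9 higher, and with the series as a block it was -0.040 with 10 higher.

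The N module, where NADH is oxidised, was measured in full (8 of 8 subunits). Its median log2 fold change was -0.036, with 1 subunit above 0 (Ndufa12, 0.025) and 7 below. Ndufv1, the flavoprotein that binds NADH and its cofactor FMN, had a lowest, median and highest signal of 3151, 3636 and 4090 in aged rats and 3462, 3668 and 3776 in young rats. The aged rats spread past the young ones on both sides, and the mean difference was close to 0 (-0.0040, SE 0.064, adjusted p = 0.992). Ndufv2, its partner with an iron-sulfur cluster, had 3222, 4223 and 4787 in aged rats and 3925, 4388 and 4701 in young rats. Aged rats 5 and 6 lay below every young rat and aged rat 2 lay above every one, and the log2 fold change was -0.10 (SE 0.10, adjusted p = 0.817). Ndufs1, the largest subunit and a carrier of several clusters, had 2605, 3073 and 3356 in aged rats and 3031, 3064 and 3377 in young rats. Aged rats 3, 5 and 6 were below all young rats, yet the medians nearly met, and the log2 fold change was -0.044 (SE 0.069, adjusted p = 0.897).

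Among the accessory subunits of the N module, Ndufs4, whose loss in mice causes a fatal brain disease, had 551, 615 and 742 in aged rats and 588, 664 and 772 in young rats. The groups overlapped through most of their range (log2 fold change -0.092, SE 0.082, adjusted p = 0.779). The zinc-binding Ndufs6, with Ndufa2 and Ndufv3, lay between -0.036 and -0.025. Ndufv3, singled out after its values were seen, ran from 841 to 1412 in aged rats and from 1046 to 1230 in young rats. Both the highest (aged rat 2) and the lowest rat (aged rat 6) were aged, and the SD of its log2 signal was 2.92 times that of the young group. A larger SD in the aged than in the young group was found in 7 of the 8 N module genes (median ratio 1.84). Over the 42 members the larger SD was the aged one in 29 (69.0%, median ratio 1.22), against 61.1% of all genes (1.15) and 67.5% of the brightest 25% (1.26).

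The Q module hands the electrons to ubiquinone, and 7 of its subunits were measured. Its median log2 fold change was -0.022, with 3 above 0 and 4 below. Ndufs7 carries the last iron-sulfur cluster before ubiquinone. It had signals of 2775, 3244, 3014, 3517, 2781 and 2566 in aged rats 1 to 6, against 2811, 2592, 3011, 2944, 2047 and 2301 in young rats 1 to 6. Young rats 5 and 6 were below every aged rat and aged rats 2, 3 and 4 were above every young rat, while the other rats of both groups mixed. The mean was 2983 ± 350 in aged and 2618 ± 381 in young rats (SD, n = 6 each), which is 0.19 on the log2 scale (95% interval -0.047 to 0.43, adjusted p = 0.636).

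The other core subunits of the Q module differed by less. Ndufs8, which holds iron-sulfur clusters next to Ndufs7, had 1370, 1531 and 1811 in aged and 1358, 1538 and 1559 in young rats. Only aged rat 2 left the young range upwards by more than a few units, and the log2 fold change was 0.049 (SE 0.071, adjusted p = 0.887). Ndufs3, one of the first subunits to be assembled, had 2154, 2587 and 2826 in aged and 2311, 2632 and 2743 in young rats. Aged rats 1 and 2 were above every young rat (log2 fold change -0.023, SE 0.081, adjusted p = 0.963). Aged rat 6 was below every young rat, and so, barely, was aged rat 3 (2309, against 2311 in young rat 5). The accessory subunits Ndufa5, Ndufa6, Ndufa7 and Ndufa9 had log2 fold changes from -0.072 to 0.017.

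**Figure D2:**
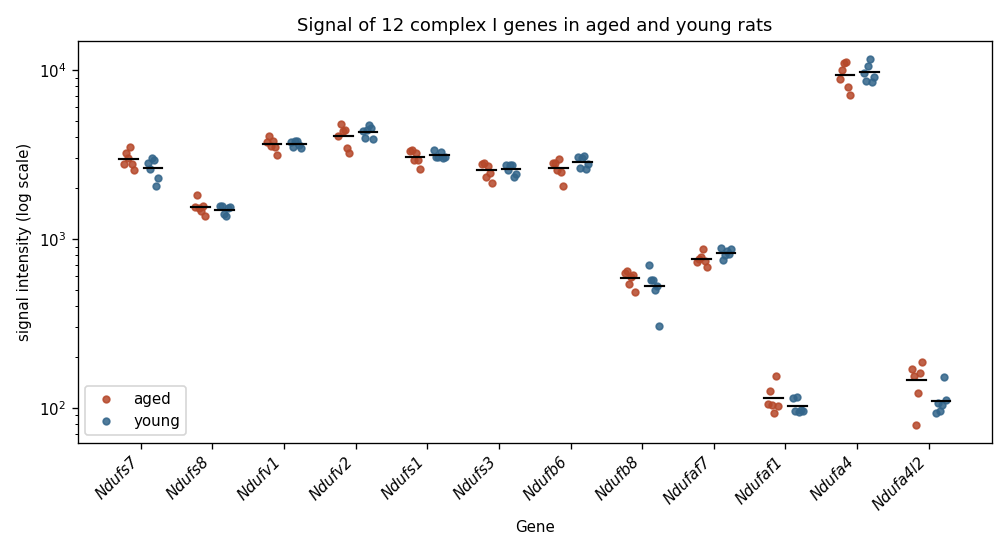
Signal intensity (y axis, log scale) of 12 complex I genes in 6 aged (red, left of each pair) and 6 young rats (blue, right), with a point per rat and a bar at the mean. The groups overlap for every gene, young rat 6 is alone at 303 for Ndufb8, and heights are to be read within a gene, since probe sets differ in brightness.

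The proximal membrane arm (7 of 10 subunits measured) had the narrowest range of the 4 modules, with log2 fold changes from -0.018 (Ndufa13) to 0.036 (Ndufc2) and 4 above 0. Ndufa8, an intermembrane space subunit held by disulfide bonds, had 5835, 6073 and 6683 in aged and 5583, 6030 and 6527 in young rats. Ndufa11, which borders the membrane domain, had 1731, 1866 and 2082 in aged and 1678, 1875 and 1944 in young rats. Ndufc2 had 4951, 5249 and 6089 in aged and 4980, 5090 and 5573 in young rats. In each of the 3 the aged maximum passed the young one through a single rat or a pair, and the medians were close (adjusted p = 0.894 for Ndufa8, adjusted p = 0.911 for Ndufa11 and adjusted p = 0.906 for Ndufc2).

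The distal membrane arm, the far end of the proton pump, was measured in full (12 of 12). Its median log2 fold change was -0.045, with 11 below 0 and Ndufb8 above. Ndufb6 had 2049, 2686 and 2978 in aged and 2601, 2898 and 3096 in young rats. Aged rats 3, 5 and 6 were below every young rat, and the log2 fold change was -0.14 (95% interval -0.34 to 0.061, adjusted p = 0.68). Ndufb1 had 2349, 2538 and 2752 in aged and 2404, 2795 and 2976 in young rats. Young rats 1, 3, 4 and 6 were above every aged rat, and the log2 fold change was -0.099 (95% interval -0.24 to 0.041, adjusted p = 0.677).

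Ndufb11, an X-linked subunit, had 2841, 3165 and 3741 in aged and 3271, 3332 and 3664 in young rats. Every aged rat except rat 4, the highest of all, was below every young rat, and the log2 fold change was -0.077 (95% interval -0.22 to 0.066, adjusted p = 0.761). Ndufb10 had 2165, 2521 and 2715 in aged and 2484, 2617 and 2756 in young rats, with a log2 fold change of -0.080 (adjusted p = 0.733). Ndufb8, whose protein is a common antibody marker of assembled complex I, had 483, 603 and 649 in aged and 303, 546 and 703 in young rats. Young rat 6 (303) was far below the other 11 rats, young rat 1 (703) was the highest, and the log2 fold change was 0.18 (95% interval -0.19 to 0.55, adjusted p = 0.795). Ndufb4 and Ndufb9 were within 0.021 of 0 (log2 fold changes -0.021 and -0.0031), and the remaining 5 genes of the distal arm, among them Ndufab1, the mitochondrial acyl carrier protein, ran from -0.053 to -0.011.

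Ndufa4 and its homolog Ndufa4l2 lay on opposite sides of 0. Ndufa4 was first assigned to complex I and later to cytochrome c oxidase. It had 7158, 9403 and 11120 in aged and 8445, 9365 and 11640 in young rats. Aged rats 5 and 6 were below every young rat and the medians nearly met (log2 fold change -0.062, 95% interval -0.33 to 0.21, adjusted p = 0.923). Ndufa4l2 is known as a gene induced by low oxygen that lowers respiratory activity, and in the mouse brain it is found mostly in pericytes. It had signals of 168, 155, 79.5, 121, 160 and 186 in aged rats 1 to 6, against 92.9, 107, 94.9, 103, 153 and 111 in young rats 1 to 6. Aged rats 1, 2, 5 and 6 were above every young rat, aged rat 3 was below every one, and young rat 5 stood well above the other 5 young rats. The mean was 145 ± 38.6 in aged and 110 ± 22.0 in young rats (SD, n = 6 each), which is 0.37 on the log2 scale (95% interval -0.070 to 0.80, adjusted p = 0.611).

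Single rats decided how Ndufa4l2 read. Without aged rat 3 the log2 fold change was 0.53 (adjusted p = 0.329), and without young rat 5 it was 0.46 (adjusted p = 0.638), where the adjusted p over 25 alternatives ran from 0.329 to 0.998. It was positive in all of them. It also ran against the other 41 genes in single animals: in aged rat 6 it was 0.60 above its mean while the others averaged -0.17, and in young rat 1 its deviation was -0.41 while the others averaged 0.070. In aged rat 2 both were above their means (0.33 and 0.093). Of 10 measured markers of endothelium and mural cells, 8 were above 0 and 2 below (20%, against 43.1% of all genes tested). Their summed signals were 2886 to 4002 in aged and 2749 to 3150 in young rats. The smallest adjusted p of the list was 0.530 in limma, and the groups overlapped for every marker. The endothelial markers Vwf, Flt1, Pecam1, Cldn5 and Tek had log2 fold changes of 0.47, 0.28, 0.23, 0.21 and 0.14. Vwf (adjusted p = 0.545) and Cldn5 (adjusted p = 0.530) had an unadjusted p under 0.05, where 6.49% of all genes tested did as higher in aged rats. The pericyte and other mural markers Acta2, Rgs5, Kcnj8, Pdgfrb and Abcc9 had log2 fold changes of 0.25, 0.044, 0.017, -0.037 and -0.14, and all 10 were above the cutoff on all arrays. The part of these cells in the Ndufa4l2 values was not tested.

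Of the 8 assembly factors named Ndufaf, 6 were measured, with 1 above 0 and 5 below. Ndufaf7, a methyltransferase that acts during assembly, had 677, 749 and 875 in aged and 749, 831 and 877 in young rats. Aged rats 1, 5 and 6 were below every young rat, and the log2 fold change was -0.13 (95% interval -0.27 to 0.022, adjusted p = 0.602). A dimmer probe set of Ndufaf7 had means of 682 ± 83.7 in aged and 750 ± 79.9 in young rats (SD, n = 6 each) and a log2 fold change of -0.14 (adjusted p = 0.782). Ndufaf1, which works on the membrane arm together with Acad9 and Ecsit, had 93.6, 104 and 154 in aged and 94.5, 96.3 and 115 in young rats. Aged rats 2 and 5 were above every young rat and the other aged rats were not, and the log2 fold change was 0.15 (95% interval -0.11 to 0.40, adjusted p = 0.741).

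Ndufaf3 and Ndufaf4, which bind the early Q module together, had log2 fold changes of -0.041 (adjusted p = 0.94) and -0.067 (adjusted p = 0.85). Ndufaf5, which hydroxylates Ndufs7, and its partner Ndufaf8 had -0.032 (adjusted p = 0.922) and -0.054 (adjusted p = 0.89). The groups overlapped for all 4. For the other 3 genes with a second probe set the sign was shared for Ndufa7 (-0.072 and -0.039) and Ndufa9 (-0.043 and -0.12) and differed for Ndufv3 (-0.025 and 0.068), with an adjusted p above 0.8 in each.

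Rats of one age also differed among themselves. Averaged over the 42 genes, the log2 deviation from each gene's mean was -0.0066, 0.099, -0.0063, 0.078, -0.041 and -0.15 in aged rats 1 to 6, against 0.059, -0.033, 0.052, 0.079, -0.073 and -0.055 in young rats 1 to 6. High and low rats were present in both groups, and the group means were -0.0049 ± 0.090 in aged and 0.0049 ± 0.066 in young rats (SD, n = 6 each). Aged rat 6 was below the gene's mean for 40 of 42 members and was the lowest of the 12 rats for 18 of them (42.9%), where it was lowest for 14.8% of all genes and 31.2% of the brightest 25%. Young rat 5 was the lowest for 9 (21.4%, against 7.41% of the brightest 25%). Young rat 4 was the highest for 14 (33.3%, against 12.7%). Aged rat 2 was the highest for 9 (21.4%), close to its share of the brightest 25% (20.8%). The genes of the N, Q and distal modules averaged -0.19, -0.18 and -0.18 in aged rat 6, which the heat map shows as a blue column.

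**Figure D3:**
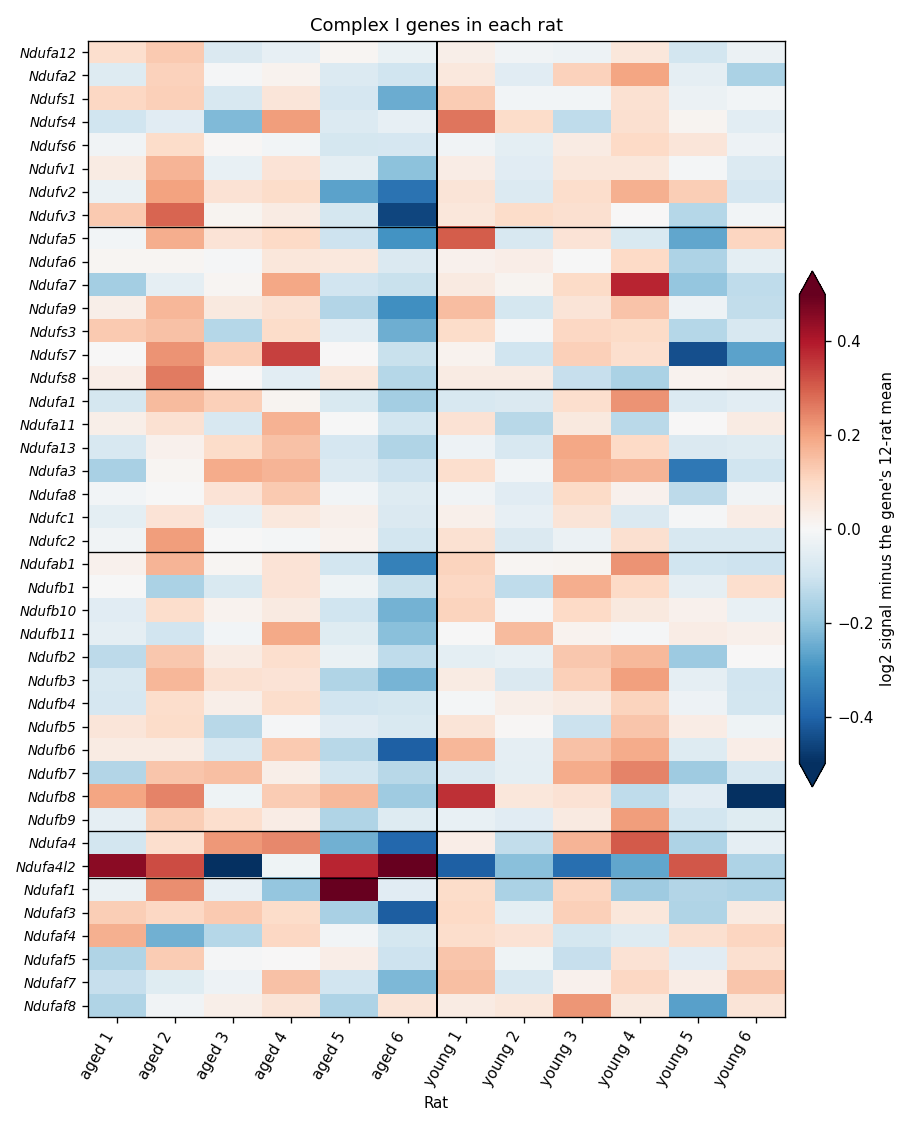
Log2 signal of each complex I gene in each rat minus that gene's mean over 12 rats (colour, red above and blue below, saturated at 0.5), aged rats left and young rats right of the vertical line, modules separated by horizontal lines in the order N, Q, proximal, distal, Ndufa4 pair, assembly factors. Aged rat 6 is low for 40 of 42 genes, and Ndufa4l2 runs against most other rows in some rats, such as aged rat 6, but not in all.

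Several other measures were at an extreme in aged rat 6. Its 5′ over 3′ signal ratio of the beta-actin control probe sets, which falls as RNA is shortened, was 0.326, while the other 5 aged rats had 0.422 to 0.499 and young rats 0.387 to 0.540. The ratios for hexokinase (0.428) and GAPDH (0.900) were also the lowest of the 12 rats. Genes of mitochondrial content averaged -0.11 there, the brightest 25% -0.053, neuron markers -0.17 and microglia markers 0.80. The array of aged rat 6 also had the highest median signal of the 12, 194.3 against 161.6 to 177.2 for the other rats, at the same trimmed mean. The part of array scaling, RNA quality or cell types in the low complex I values of aged rat 6 was not tested. Between the groups the actin ratio did not separate, with 0.437 ± 0.062 in aged and 0.454 ± 0.058 in young rats (SD, n = 6 each). The paper states that every array met the usual Affymetrix quality criteria, and it gives RNA integrity for the samples together, not by rat.

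**Figure D4:**
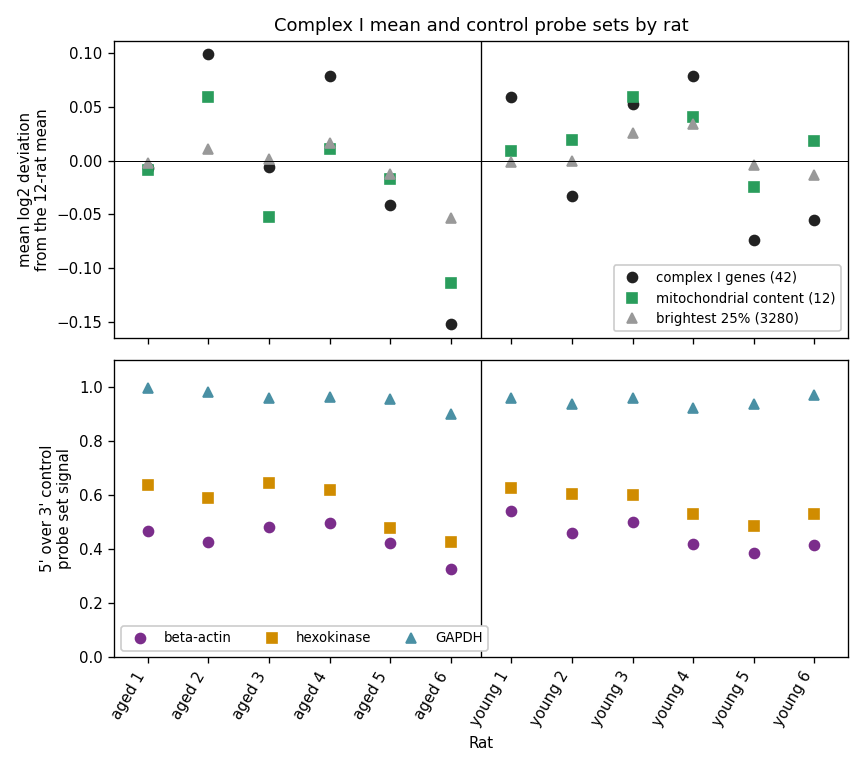
Top, mean log2 deviation from the 12-rat mean (y axis) for 42 complex I genes, 12 genes of mitochondrial content and 3280 other genes of the brightest 25%, per rat. Bottom, ratio of 5′ to 3′ control probe set signal (y axis) for beta-actin, hexokinase and GAPDH. Aged rats stand left of the line and young rats right, and aged rat 6 has the lowest complex I mean (-0.15) and the lowest ratio for all 3 controls.

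The genes around complex I were read from further lists. Of 13 measured genes that help to assemble the enzyme under other names, 8 were above 0 and 5 below (median 0.020), and none reached p of 0.05. Nubpl, which delivers iron-sulfur clusters to complex I, had 160 to 361 in aged and 162 to 410 in young rats, with a log2 fold change of -0.44 (adjusted p = 0.636). Lyrm2, which aids the N module, had a log2 fold change of 0.14 (adjusted p = 0.673). Of 10 regulators of mitochondrial genes 6 were above 0 and 4 below (median 0.039), none at p of 0.05. They included Nrf1 (0.15, adjusted p = 0.765), Sp1 (0.18, adjusted p = 0.68) and Yy1 (-0.025, adjusted p = 0.941), the factor whose letters are printed above for 8 promoters. Of 12 genes of mitochondrial content, such as porins and import receptors, 3 were above 0 and 9 below (median -0.044), and the smallest p were those of the import receptor Tomm70 (-0.11, adjusted p = 0.578) and the chaperonin Hspd1 (-0.087, adjusted p = 0.68).

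Markers of cell types bear on a bulk measurement, and their part in the complex I values was not tested. Neuron markers were above 0 for 3 of 13 and below for 10 (median -0.080), with summed signals of 71440 to 76520 in aged and 71330 to 85000 in young rats. Syn1, a synaptic vesicle protein, had -0.14 (adjusted p = 0.527). Microglia markers were above 0 for 9 of 10 (median 0.25), with sums of 5307 to 10400 in aged and 4640 to 6374 in young rats. Tyrobp (0.52, adjusted p = 0.294) and P2ry12 (0.29, adjusted p = 0.503) had the smallest p of the list. Oligodendrocyte markers were above 0 for 8 of 8 (median 0.25, sums 34640 to 56060 in aged and 33210 to 48870 in young rats) and astrocyte markers for 6 of 8 (median 0.033, sums 55300 to 68940 in aged and 53640 to 66470 in young rats). The smallest p of the oligodendrocyte list were those of Ermn (0.55, adjusted p = 0.563) and Mag (0.38, adjusted p = 0.673). In the astrocyte list they were those of Gfap (0.41, adjusted p = 0.57) and S100b (0.11, adjusted p = 0.678). Blood markers were above 0 for 3 of 4, with sums of 6163 to 9734 in aged and 5082 to 9449 in young rats. Alas2 (0.50, adjusted p = 0.572) and Ptprc (0.24, adjusted p = 0.707) had the smallest p of the blood list. Of the markers in these lists all were above the cutoff on all 12 arrays except 1 of microglia and 1 of blood.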

How the data were processed

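The intensity values that the authors deposited are linear, with a mean of 500.1 on every array once 2% was trimmed at either end. MAS5, GCRMA and R 2.7.1 are named by the submitters' processing notes and gcRMA by the methods, and the order of steps is not given in the sources used here. Log2 intensity was tested without further normalization. Of 31099 probe sets, 20832 had 1 gene symbol in the platform annotation, 436 several and 9831 none. Gene IDs of 20764 probe sets were found in the RefSeq table. Each gene kept its brightest probe set, and 13253 genes were above 4.3 (a signal of 19.7) on at least 3 arrays. Aged and young rats were compared with limma 3.58.1 in R 4.3.3, checked on simulated data, by a two-sided test, and p-values were adjusted (Benjamini-Hochberg) over every gene tested. Tables and figures were made in Python 3.11.15 with matplotlib 3.10.9.

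The complex I genes and all gene lists were chosen with earlier results of these data known, so no test was made over a list. Named were members at p up to 0.05, the 8 with the smallest p in each direction, the nuclear core subunits, the 3 brightest and 3 dimmest, Ndufa4, Ndufa4l2 and the assembly factors, and the 2 genes of smallest p from each other list. Further markers were named beside results they bear on. The cutoff was that of the methods, where it was chosen from gcRMA signals. Whether it parts signal from noise alike in the deposited values was not tested. Alternatives were other scalings, filters, probe set rules and variance models, the methods' t-test, the code series, a replicate block and each rat left out. Some items of the gene family are not reported here.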

Additional observations from a re-analysis of the deposited data

Results flagged for a closer look

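In 86 groups of 6 rats checked for a single rat far from the rest, 3 were flagged, and chance flags about 1 in 20 groups. Ndufc2 had a signal of 6089 in aged rat 2, with the other aged rats between 4951 and 5338. Ndufa4l2 had 152.9 in young rat 5, with the other young rats between 92.9 and 110.8. Ndufb11 had 3664 in young rat 2, with the other young rats between 3271 and 3365.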

How the results depend on the processing

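No complex I gene reached an adjusted p under 0.05 under any of 26 alternatives. The number at an unadjusted p of 0.05 was 0 in the main comparison and 1 under 4 settings: Ndufa4l2 when blocking on the code series (0.43, adjusted p = 0.456), Ndufv2 in the higher code series alone (-0.39, adjusted p = 0.641), Ndufaf7 with median centring (-0.20, adjusted p = 0.509) and Ndufs7 with the replicate block (0.19, adjusted p = 0.423). Leaving out 1 rat gave 0 to 2: Ndufa4l2 without aged rat 3 or young rat 5, Ndufaf7 without aged rat 4 (-0.17, adjusted p = 0.512) or young rat 2 (-0.15, adjusted p = 0.599) and Ndufb11 without aged rat 4 (-0.12, adjusted p = 0.586). At an unadjusted p of 0.01 the range was 0 to 1. In the main limma comparison 6.49% of all genes tested were at p up to 0.05 as higher in aged rats and 2.62% as lower. The shares under the alternatives are not given here, so these counts have no baseline and set no gene apart. Adjusted p over the alternatives ran from 0.509 to 0.998 for Ndufaf7, from 0.423 to 0.998 for Ndufs7, from 0.586 to 0.998 for Ndufv2 and from 0.586 to 0.998 for Ndufb11.

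The median log2 fold change of the members was -0.11 in the higher code series alone and ran from -0.056 to 0.010 with 1 rat left out. The number of members higher in aged rats was 25 in the lower code series alone, 4 with median centring, 19 with quantile normalization and 17 without aged rats 2 and 6 together, an alternative chosen after seeing the data, and 9 to 26 with 1 rat left out. Of 625 values of the 25 named members, 42 had the sign turned, and 10 members never turned it. The cause of these moves was not tested.

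Over all genes tested, 7 genes at an adjusted p under 0.05 became 13 with array weights, 18 with an intensity trend and robust variances, 4 with quantile normalization, 2 with median centring, 2 with the replicate block, 0 in either code series alone (fewer rats), 1 without aged rats 2 and 6, and 0 to 8 with 1 rat left out (0 without aged rat 3 or young rat 1, 1 without aged rat 6, 2 without aged rat 2, 4 without aged rat 5 or young rat 2). The subject numbers were shared by the age groups without a stated pairing, and the correlations of same-numbered rats were 0.16, -0.040, 0.12, 0.11, 0.098 and 0.15. Replicate p-values measure the spread between 6 rats a group, and the effects of RNA length and of cell composition on small differences were not tested.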
